A study of Mus musculus with 2 samples.

Results

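The genes described here build the MHC class I antigen presentation pathway of mouse liver. They are the heavy chain genes H2-K1, H2-D1 and H2-M3, the light chain gene B2m, the peptide transporter genes Tap1 and Tap2, the loading factor gene Tapbp, the immunoproteasome genes Psmb8 and Psmb9 and the transcriptional regulator gene Nlrc5. They were taken by their names on the array from the non-control spots. All 10 were present, with 12 probes on 30 spots, among 31044 genes named on the array, and all 10 were measured on both arrays. Total liver RNA of Pnpla8-/- mice and of WT mice was compared on 2 one-colour Agilent arrays, 1 per genotype. Both groups were C57BL/6N mice, and each array held equal parts of RNA from 5 livers according to the series design text. The sample labels give the age as 6 weeks and the design text as 8 weeks. The sources used here do not state which part of Pnpla8 was removed, or in which tissues.

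Class I molecules are heterodimers of a polymorphic heavy chain and beta-2-microglobulin that display short peptides from the cytosol to CD8 T cells and to receptors on NK cells. Peptides are cut by the proteasome, whose immunoproteasome form carries inducible catalytic subunits, carried into the endoplasmic reticulum by the TAP transporter and fitted to the groove with the help of tapasin. Almost all nucleated cells express the pathway. In liver it is present in hepatocytes at a low level and more strongly in Kupffer cells, sinusoidal endothelium and lymphocytes, and interferon gamma raises it, in part through IRF1 and NLRC5.

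Promoter windows from RefSeq (GRCm38.p6, 250 bases before to 50 after the annotated start) were matched for 8 of the 10 genes, all but Nlrc5 and Tap2. They are shown for 6 genes because several members share control elements in them. Capitals mark, on either strand, the kappa B site of the H2-K1 enhancer, a further kappa B form, the interferon consensus of class I promoters, the core of the interferon-stimulated response element, TTCNNNGAA (the gamma-activated site), TGACGCG (site alpha) and CCAAT.
H2-K1: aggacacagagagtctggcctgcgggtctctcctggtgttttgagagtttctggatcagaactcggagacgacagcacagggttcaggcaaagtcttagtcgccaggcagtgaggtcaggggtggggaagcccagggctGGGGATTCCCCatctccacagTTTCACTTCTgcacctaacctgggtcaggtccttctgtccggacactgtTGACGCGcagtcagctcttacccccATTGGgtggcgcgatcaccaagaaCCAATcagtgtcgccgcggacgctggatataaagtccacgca
H2-D1: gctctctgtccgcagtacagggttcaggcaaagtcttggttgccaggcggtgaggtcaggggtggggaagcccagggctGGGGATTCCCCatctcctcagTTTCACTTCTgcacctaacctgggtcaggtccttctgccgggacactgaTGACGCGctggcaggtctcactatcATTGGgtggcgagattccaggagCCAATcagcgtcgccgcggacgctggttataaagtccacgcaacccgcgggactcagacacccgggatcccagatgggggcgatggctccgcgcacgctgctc
H2-M3: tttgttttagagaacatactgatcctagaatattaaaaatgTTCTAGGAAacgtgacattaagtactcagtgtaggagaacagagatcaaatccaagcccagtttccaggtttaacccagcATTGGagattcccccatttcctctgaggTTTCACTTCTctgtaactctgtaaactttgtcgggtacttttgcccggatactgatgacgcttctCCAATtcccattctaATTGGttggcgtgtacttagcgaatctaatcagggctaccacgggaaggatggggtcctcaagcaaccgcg
B2m: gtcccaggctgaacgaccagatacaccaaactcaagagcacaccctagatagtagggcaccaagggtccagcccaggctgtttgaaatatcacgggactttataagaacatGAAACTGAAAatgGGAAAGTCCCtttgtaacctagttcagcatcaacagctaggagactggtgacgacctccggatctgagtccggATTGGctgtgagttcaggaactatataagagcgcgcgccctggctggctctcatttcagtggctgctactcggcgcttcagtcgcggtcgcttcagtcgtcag
Tap1: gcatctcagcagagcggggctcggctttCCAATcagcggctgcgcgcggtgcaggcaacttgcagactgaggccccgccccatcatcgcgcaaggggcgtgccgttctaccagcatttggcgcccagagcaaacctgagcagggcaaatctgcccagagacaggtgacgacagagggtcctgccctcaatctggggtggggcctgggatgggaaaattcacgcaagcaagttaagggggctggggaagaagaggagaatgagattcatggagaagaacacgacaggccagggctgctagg
Psmb8: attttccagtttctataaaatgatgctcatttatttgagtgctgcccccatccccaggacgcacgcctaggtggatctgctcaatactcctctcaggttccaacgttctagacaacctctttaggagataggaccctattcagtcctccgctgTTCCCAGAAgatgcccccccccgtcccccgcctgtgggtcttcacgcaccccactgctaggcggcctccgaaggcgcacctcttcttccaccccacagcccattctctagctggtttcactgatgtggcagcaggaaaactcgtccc

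The H2-K1 window (chr17:34000298-34000597, minus strand) and the H2-D1 window (chr17:35262844-35263143, plus strand) had an identical run of 47 bases that includes the kappa B site. That site occurred in no other member and in 0.0304% of the 32851 promoter windows, and TGACGCG in the same pair and in 1.91% of windows. The kappa B letters searched were those of the H2-K1 enhancer, so the H2-K1 match was fixed in advance. The H2-D1 match is part of the identical run and no separate find. The interferon consensus, a search added after the windows were read, lay in H2-K1, H2-D1 and H2-M3 (chr17:37269984-37270283, plus strand) and in 0.155% of windows. Among the members the response element core was in B2m alone (chr2:122147437-122147736, plus strand) and in 3.44% of windows, and B2m also held the further kappa B form, found in 0.155%. TTCNNNGAA was found in Psmb8 (chr17:34197945-34198244, plus strand) and H2-M3, against 8.30% of windows. CCAAT was in 7 of the 8 members and in 37.4% of windows. Tap1 (chr17:34187306-34187605, plus strand) and Psmb9 (chr17:34187281-34187580, minus strand) are transcribed away from each other with 226 bases between their annotated starts, so their windows share 275 bases. The CCAAT matches of Tap1 and Psmb9 are the same site in these shared bases, read on opposite strands and counted for both genes. These matches describe letters in the windows and not bound sites.

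Of 43020 spots outside the controls, 65.6% stood well above background on the Pnpla8-/- array and 70.1% on the WT array, and none was saturated. The Pnpla8 probe read a processed signal of 4.45 on the Pnpla8-/- array, where it was not well above background, and 144.5 on the WT array. Its level in the knockout pool was thus lower by at least 6.81-fold, against the lowest signal well above background on the Pnpla8-/- array. All 8 hepatocyte markers were measured on both arrays, and Alb, which encodes albumin, read 392982 in the Pnpla8-/- pool and 393769 in the WT pool. Signals below are scaled, that is divided by the 75th percentile of the array's non-control spots, which was 1018 on the Pnpla8-/- array and 1207 on the WT array. Each ratio is the knockout pool over the WT pool on the log2 scale. With 1 array per genotype differences have no replicate check and no test was run, so genotype cannot be told apart from pool or array position. The technical spread was a median SD of 0.047 between spots of a probe (290 probes) and 0.095 between probes of a gene (4286 genes), and Feature Extraction's own error for a member's ratio was 0.20 to 0.23.

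The members formed a set near 0 and a set that was lower in the knockout pool. Psmb8, H2-M3, Tap1 and Psmb9 had log2 ratios between -0.75 and -0.58, while the other 6 lay between -0.27 and 0.14, with a gap of 0.31 between the sets. No member was at least 2-fold lower, a size reached by 1.85% of 19951 measured genes. At least 1.5-fold lower were 3 of the 10 (Psmb8, H2-M3 and Tap1), against 5.93% of all measured genes, and Psmb9 was 1.495-fold lower, just short. None was at least 1.5-fold higher, against 4.42% of all measured genes. Below 0 were 9 of the 10, against 43.1% of all genes. The median over the 10 was -0.24, beside 0.04 over all measured genes. The count at 1.5-fold was 1 with the normexp background, where 2.91% of all genes were that much lower. It was 4 without scaling and with quantile, loess or spike-in scaling. The ratios of Psmb8, H2-M3, Tap1 and Psmb9 were 2.84 to 3.70 times the scanner software's error, and those of the other members' probes 0.059 to 1.31 times. That error was nearly the same for every member probe, 0.20 to 0.23. The multiples therefore restate the sizes of the ratios and are no separate check on the 2 sets.

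**Figure D1:**
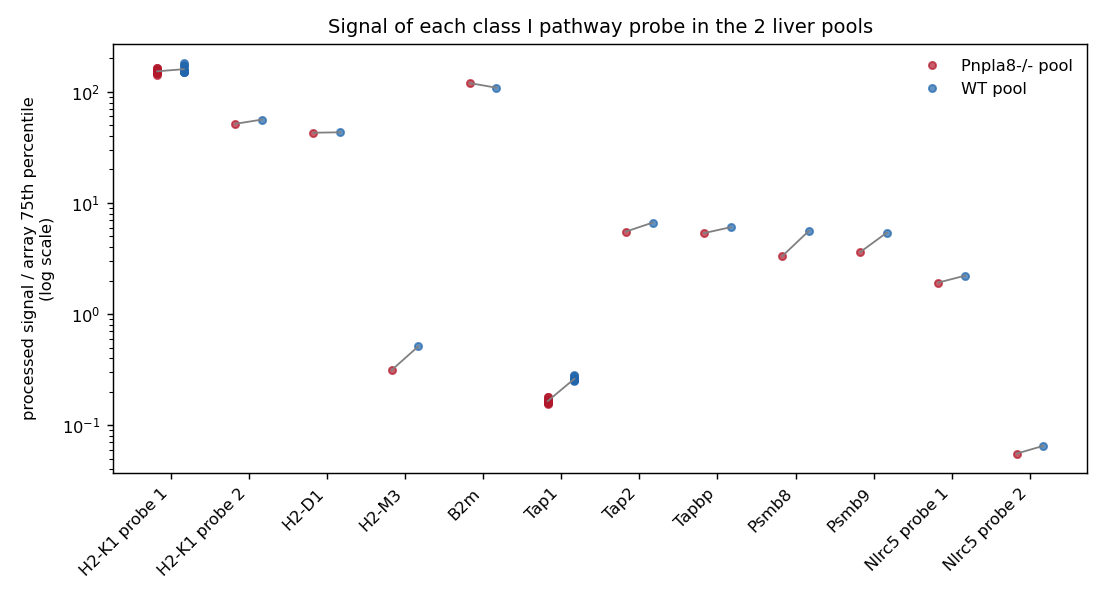
Scaled signal (processed signal over the array's 75th percentile, log axis) of each member probe, with the Pnpla8-/- pool in red on the left and the WT pool in blue on the right, 1 point per spot and a grey line between the array means. The steepest lines belong to H2-M3, Tap1, Psmb8 and Psmb9, and those of B2m, H2-D1 and H2-K1 are close to flat.

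The classical heavy chains were close to equal in both pools. H2-K1, a class Ia heavy chain that presents peptides to CD8 T cells, was read by 2 probes. Coordinates of probes are those of the array files, and the exon or UTR they lie in was not analysed here. Its first probe (A_51_P198434, mm9 chr17:34133055-34133114, 10 spots) averaged a scaled signal of 152.8 in the Pnpla8-/- pool and 159.7 in the WT pool. Those are among the brightest spots on the array, above 99.6% of non-control spots in the Pnpla8-/- pool and 99.7% in the WT pool. The log2 ratio was -0.064, with an SD of 0.074 over the 10 spots and spot values from -0.19 to 0.042, so the spots lie on both sides of 0. The second probe (A_55_P2049647, mm9 chr17:34133984-34134043) read 51.5 in the Pnpla8-/- pool and 56.2 in the WT pool, a ratio of -0.13. H2-D1 (mm9 chr17:35403886-35403945), the other class Ia heavy chain of these mice, read 42.8 in the Pnpla8-/- pool and 43.2 in the WT pool, a ratio of -0.012. The H2-D1 ratio was 0.049 with median scaling, -0.26 without scaling, and between -0.18 and -0.14 with quantile, loess or spike-in scaling. Class I genes have near-identical copies, so these probes can also bind relatives, and the values of single class I genes are uncertain to that extent.

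H2-M3 (mm9 chr17:37411350-37411409), a class Ib heavy chain that presents N-formylated peptides such as those of bacteria, differed from the class Ia pair. It read a scaled signal of 0.313 in the Pnpla8-/- pool and 0.511 in the WT pool, 1.63-fold lower with a log2 ratio of -0.71. Of all measured genes 4.31% had a lower ratio. Its ratio with the normexp background was -0.57, short of 1.5-fold. B2m (mm9 chr2:121978401-121978460), the light chain that all classical class I molecules share, was the highest of the 10. It read 119.8 in the Pnpla8-/- pool and 108.8 in the WT pool, a ratio of 0.14 that was below 0, between -0.11 and -0.02, without scaling and with quantile, loess or spike-in scaling. H2-K1 was below 0 under every setting tried, at -0.34 to -0.034.

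Of the transporter and loading genes, Tap1 was at least 1.5-fold lower, and Tap2 and Tapbp were not. Tap1 (mm9 chr17:34330854-34330913), a TAP subunit that moves peptides into the endoplasmic reticulum, was measured on 10 spots. Their processed signals ran from 157.3 to 183.2 with a median of 166.4 in the Pnpla8-/- pool, and from 303.2 to 338.7 with a median of 313.4 in the WT pool. Before scaling, no Tap1 spot of the knockout array overlapped those of the WT array. This is not particular to Tap1. Without scaling, 79.4% of all measured genes were below 0. How many of all repeatedly spotted probes had no overlap was not counted, so the non-overlap is no result about Tap1. The 10 spots of the first H2-K1 probe did not overlap either, at 143494 to 167386 in the Pnpla8-/- pool and 180622 to 216907 in the WT pool. After scaling Tap1 was 1.58-fold lower with a log2 ratio of -0.66, and the 10 spot ratios lay between -0.83 and -0.52 with an SD of 0.085. These spots repeat the same RNA pools, so they measure technical spread alone. The ratio was -0.47 with the normexp background. Tap2 (mm9 chr17:34353116-34353175), its partner subunit, read a scaled 5.53 in the Pnpla8-/- pool and 6.65 in the WT pool, a ratio of -0.27. Tapbp (mm9 chr17:34065963-34066022), which encodes tapasin and bridges TAP to the empty class I molecule, read 5.35 in the Pnpla8-/- pool and 6.05 in the WT pool, a ratio of -0.18.

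The immunoproteasome subunits were the lowest pair by role. Psmb8 (LMP7) and Psmb9 (LMP2) replace constitutive catalytic subunits of the 20S core and change which peptide ends are produced. Psmb8 (mm9 chr17:34337771-34337830) read a scaled signal of 3.32 in the Pnpla8-/- pool and 5.60 in the WT pool, which is 1.69-fold lower with a log2 ratio of -0.75, the lowest of the 10. Of all measured genes 3.80% had a lower ratio. Without scaling the ratio of its processed signals was just past 2-fold, at 3379 in the Pnpla8-/- pool against 6760 in the WT pool. Psmb9 (mm9 chr17:34319174-34319233) read a scaled 3.62 in the Pnpla8-/- pool and 5.41 in the WT pool, a ratio of -0.58.

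Psmb8 and Psmb9 were lower in the knockout pool than the constitutive subunits they replace, while Psmb10 differed less from its counterpart. Psmb5, the subunit that Psmb8 replaces, had a log2 ratio of -0.055, so the pair differed by -0.70. Psmb6, replaced by Psmb9, had -0.067, a difference of -0.51. Psmb10, the remaining inducible subunit, had -0.16 and its counterpart Psmb7 had 0.098, a difference of -0.25. Scaling to a constant cancels in these differences. They stayed, with the normexp background, within the spread between probes of a gene, 0.095, of the values given. Quantile and loess scaling, which do not cancel, were not applied to these differences. Of the 7 measured genes on a list of proteasome subunits and partners outside the members, none was at least 1.5-fold lower. Their median was -0.06, which was -0.20 with quantile and -0.17 with loess scaling. The list does not hold every proteasome gene on the array. Psme1, the alpha subunit of the interferon-inducible PA28 activator, had -0.20, and Pomp, which assists core assembly, had -0.06. Psme3, which encodes the nuclear PA28 gamma activator, was higher in the knockout pool, with 7691 in the Pnpla8-/- pool and 4285 in the WT pool before scaling. Its log2 ratio was 1.09, a size in the higher direction reached by 1.29% of measured genes. Without scaling and with spike-in scaling it was under 2-fold, at 0.84 and 0.93.

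**Figure D2:**
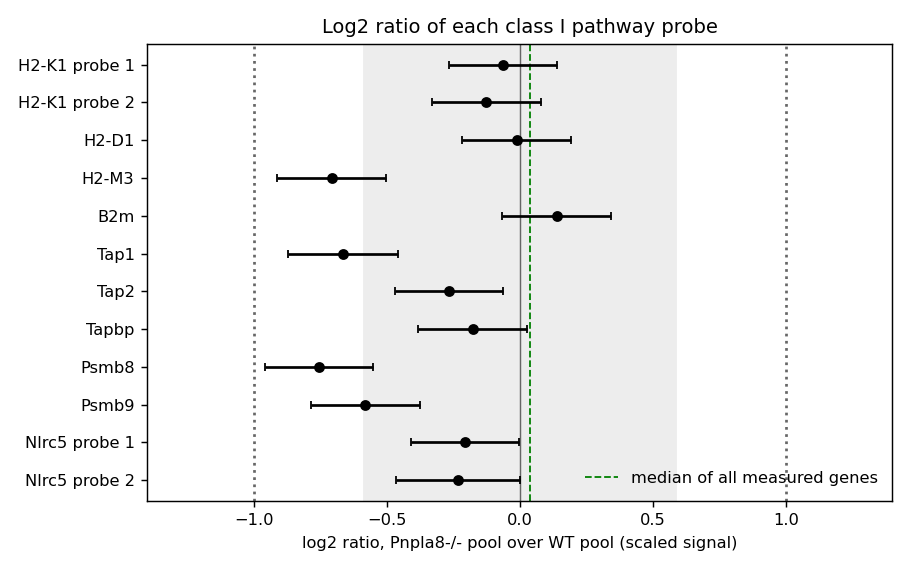
Log2 ratio of the Pnpla8-/- pool over the WT pool for each member probe. Bars are the Feature Extraction error of the ratio, the grey band marks ratios under 1.5-fold, dotted lines mark 2-fold, and the dashed line is the median of all measured genes (0.04). Psmb8, H2-M3 and Tap1 lie left of the band, Psmb9 lies at its edge, and no probe reaches 2-fold.

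Nlrc5, the NOD-like receptor that binds class I promoters and drives their transcription, was lower by less than the immunoproteasome genes. Its brighter probe (A_55_P2016034, mm9 chr8:97051105-97051164) read a scaled 1.92 in the Pnpla8-/- pool and 2.22 in the WT pool, a ratio of -0.21. Its dimmer probe (A_66_P113043, mm9 chr8:97030566-97030624) read 0.0556 in the Pnpla8-/- pool and 0.0653 in the WT pool, a ratio of -0.23. Both ratios were about the size of the Feature Extraction error. Of 20 other measured regulators of class I genes, 3 were at least 1.5-fold lower, against 5.93% of all measured genes, and none that much higher, and their median was -0.08. The count was 1 with median scaling and 2 with quantile scaling, with normexp and without the dim-probe filter. These 3 were Irf8 (-0.75), Irf1 (-0.64) and Socs1 (-0.59). IRF1 carries the interferon gamma signal to class I, Tap1 and Psmb9 promoters, IRF8 is a myeloid and B cell factor, and SOCS1 is a feedback inhibitor. Socs1 had -0.33 with the normexp background, and Irf1 had 0.010 when its dim probe was kept. Upstream of them, the interferon gamma receptor and kinase genes were within 1.5-fold, with Ifngr1 at -0.31, Ifngr2 at 0.079, Jak1 at 0.0018 and Jak2 at -0.0046. Stat2 had -0.34. The kappa B factor genes Nfkb1 and Rela had -0.044 and -0.11, and the CCAAT-binding Nfya, Nfyb and Nfyc had 0.14, -0.19 and 0.19.

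A list of further class I genes gave ratios close to 0. Of its 16 measured genes, none was at least 1.5-fold lower or higher, 4 were below 0, and their median was 0.08, which was -0.17 without scaling and -0.09 with spike-in scaling. They ran from -0.17 for H2-T10 to 0.33 for Azgp1. The liver-rich H2-Q10, a secreted class I chain, had 0.25, H2-Q4 had 0.26 and H2-T23, which encodes the Qa-1 chain seen by NK receptors, had -0.080. Distant relatives gave similar values, with 0.086 for the lipid-presenting Cd1d1, 0.16 for Mr1, 0.014 for the IgG receptor chain Fcgrt and 0.066 for the iron regulator Hfe. The list does not hold every class I gene on the array. Outside it, H2-M5 had 1.42, which was 0.59 with the normexp background, and H2-Q5 had -0.35.

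Among 8 other loading and trimming genes, none was at least 1.5-fold lower, 7 were below 0 and the median was -0.23. The chaperone gene Calr (calreticulin) was lowest at -0.58, and reached 1.5-fold without scaling and with quantile, loess, spike-in or normexp processing. Pdia3, the disulphide isomerase of the loading complex, had -0.42, Sec61a1, a subunit of the translocation channel, -0.29, Tapbpl, the tapasin relative, -0.28 and Canx (calnexin) -0.17. Erap1, the aminopeptidase that trims peptides in the endoplasmic reticulum, had 0.18. Calr, Canx and Pdia3 also serve general glycoprotein folding.

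Class II genes, whose products present peptides from the endocytic route on antigen-presenting cells, had larger differences than the class I members. All 9 measured were below 0, against 43.1% of all genes, and 7 were at least 2-fold lower, against 1.85% of all measured genes. The median was -1.41, beside -0.24 for the class I members and 0.04 for all genes. With the normexp background 8 of the 9 were below 0, 6 were at least 2-fold lower and the median was -1.32. H2-Aa read a processed signal of 461 in the Pnpla8-/- pool and 1753 in the WT pool, with a log2 ratio of -1.68. H2-Eb1 had -1.66 and H2-Ab1 had -1.59. Ciita, the class II counterpart of Nlrc5, had -0.48, with its 3 probes from -0.77 to 0.41. No test of the difference between the class I and class II genes was possible.

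General leukocyte and Kupffer cell markers were lower in the same comparison, and those of other immune cells in part. Fewer cells of a type and less RNA per cell cannot be told apart in whole liver. Of 4 general leukocyte markers, 4 were at least 1.5-fold lower, against 5.93% of all measured genes, with a median of -0.97. Their summed scaled signal was 3.51 in the Pnpla8-/- pool and 7.25 in the WT pool. The lowest were Cd52 at -1.12, Coro1a at -0.99 and Ptprc (CD45) at -0.96. Of 10 Kupffer cell and macrophage markers all 10 were at least 1.5-fold lower with a median of -0.88, and they summed to 52.0 in the Pnpla8-/- pool and 106.5 in the WT pool. Among them the scavenger receptor gene Marco had -1.34, Cd5l -1.22 and Adgre1 (F4/80) -1.16. For T and NK cells it was 6 of 8 measured (median -0.79), with sums of 15.8 in the Pnpla8-/- pool and 18.7 in the WT pool. For B cells it was 3 of 4 (median -0.79), with sums of 0.868 in the Pnpla8-/- pool and 1.28 in the WT pool. For dendritic cells it was 3 of 7 (median -0.57), with sums of 50.9 in the Pnpla8-/- pool and 43.4 in the WT pool. The brighter probe of Siglech makes up most of that sum, and its 2 probes had -0.79 and 0.25. The largest ratios were -1.35 for Cd3d, -1.19 for Ccl5 and -1.02 for Cd3g of the T and NK cell list, and -1.34 for Ms4a1, -0.97 for Cd79b and -0.60 for Cd79a of the B cell list. Those of the dendritic cell list were -1.14 for Itgax and -0.81 for both Ccr7 and Cd209a. Not every marker of these lists was lower. Cd4 had 0.044 and Cd3e -0.058 in the T and NK cell list, Cd22 had 0.16 in the B cell list, and Zbtb46 had 0.11 in the dendritic cell list. Nkg7, counted as lower, had its 2 probes at -1.35 and -0.043. With the normexp background the T and NK, B and dendritic cell medians were -0.41, -0.45 and -0.15. At least 1.5-fold lower were then 3, 2 and 1 genes. With only probes above the median signal the medians were -0.14 (T and NK), -0.70 (B) and -0.26 (dendritic). At least 1.5-fold lower were then 2 of 5, 2 of 3 and 2 of 5 measured genes. Cd8a was well above background only in the WT pool, and Ncr1 and Xcr1 in neither. Sinusoidal endothelial markers had a median of -0.22 with 1 of 8 at least 1.5-fold lower (Lyve1 at -0.66, followed by Cdh5 at -0.44 and Oit3 at -0.24). Stellate cell markers had -0.23 with none of 6 (Des -0.40, Lrat -0.32, Pdgfrb -0.27). Cholangiocyte markers had -0.11 with none of 5 (Epcam -0.20, Sox9 0.18, Krt19 -0.11). Hepatocyte markers had a median of 0.28, with 1 of 8 below 0. At least 1.5-fold higher were 2 of 8 (Tat at 1.32 and Cps1 at 0.99), against 4.42% of all measured genes, followed by Cyp2e1 at 0.38. The 8 summed to 1661 in the Pnpla8-/- pool and 1355 in the WT pool. Their median was 0.04 without scaling, with 4 of 8 below 0, and 0.09 to 0.12 with quantile, loess or spike-in scaling. The part of these cell markers in the ratios of Psmb8, Psmb9, Tap1 and H2-M3 was not tested.

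**Figure D3:**
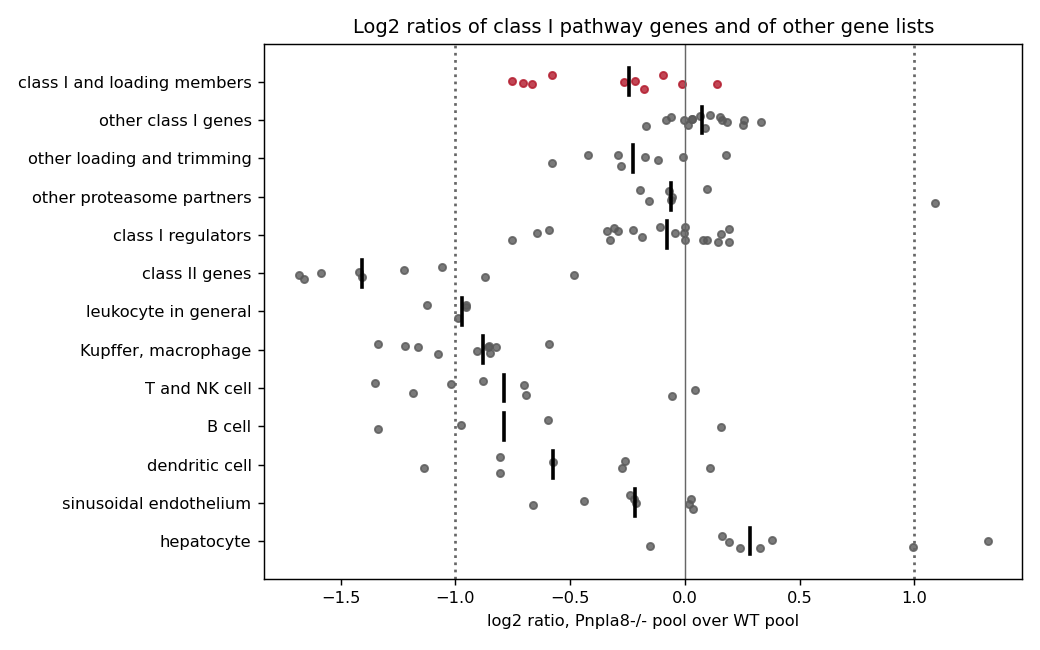
Log2 ratios of the Pnpla8-/- pool over the WT pool, 1 point per measured gene, for the class I members (red) and for other gene lists (grey), with black bars at the list medians and dotted lines at 2-fold. The class I members (median -0.24) lie between the other class I genes (0.08) and the leukocyte (-0.97) and class II genes (-1.41).

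Of the members, 8 lie on chromosome 17, where the MHC is, with probes spread over 3.35 Mb of mm9 from Tapbp to H2-M3. B2m is on chromosome 2 and Nlrc5 on chromosome 8. Psmb9, Tap1, Psmb8 and Tap2 lie side by side, from -11.7 to 22.3 kb around the Tap1 probe, and their ratios in that order were -0.58, -0.66, -0.75 and -0.27. Class II genes lie on both sides of them, from H2-Oa at -98.8 kb to H2-Eb1 at 122 kb from the Tap1 probe. Of the 6 class II genes measured in the interval, 5 were at least 2-fold lower, against 1.85% of all measured genes. H2-Ob had -0.87, with its 2 measured probes at -1.11 and -0.63. H2-K1 at -197 kb and H2-D1 at 1073 kb were within 1.5-fold, as were all 8 of the listed other class I genes there. The remaining 143 genes and unnamed transcripts measured in the interval had a median of 0.06 with 6 at least 1.5-fold lower (4.20%, against 5.93% of all measured genes) and 3 at least 1.5-fold higher. The lowest were Ubd at -1.93, which encodes the cytokine-inducible ubiquitin-like protein FAT10, Ly6g6e at -1.20 and the macrophage gene Aif1 at -1.16. The highest were H2-M5 at 1.42, the unnamed transcript TC1586030 at 1.35 and Gm8909 at 1.30. Under the normexp background Ubd had -1.23, H2-M5 0.59 and Gm8909 1.08.

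**Figure D4:**
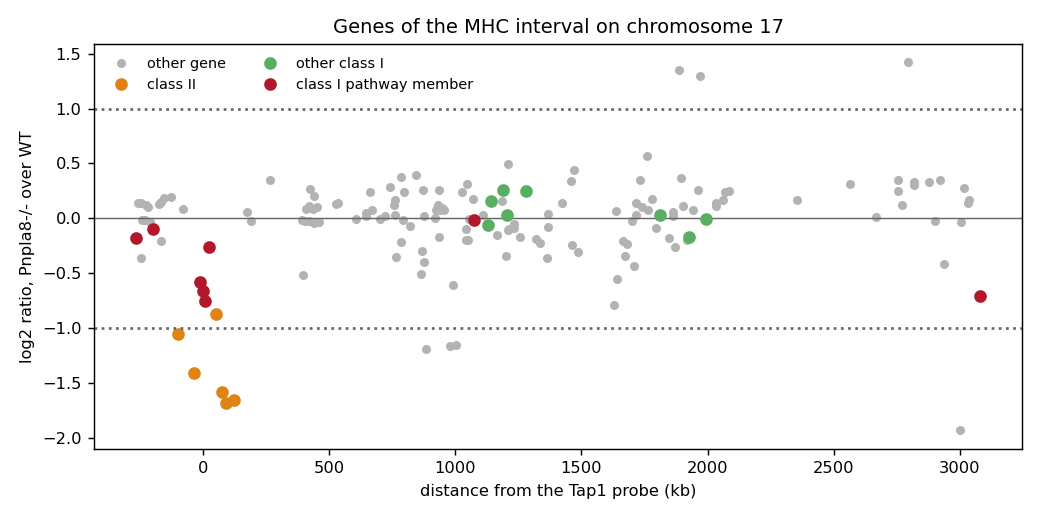
Log2 ratio of the Pnpla8-/- pool over the WT pool against distance from the Tap1 probe in kb, for each gene measured between the Tapbp and H2-M3 probes on chromosome 17. Of the 6 class II genes (orange), 5 lie below the dotted 2-fold line and H2-Ob lies just above it, the immunoproteasome and Tap1 points (red) next to them lie between -0.75 and -0.58, and most other genes (grey) and class I genes (green) lie near 0.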

How the data were processed

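Total RNA from pooled livers was labelled with Cy3 and hybridised to 2 one-colour arrays, per the labels' protocols. The scanner files hold intensity as deposited, extracted by the authors with Feature Extraction (Agilent, version 11.5.1.1, per the submitters' processing notes), on a linear scale after background subtraction. The deposited value table holds the same intensity divided by 1018.65 (Pnpla8-/-) or 1207.25 (WT), with medians of 0.0763 and 0.0800 (linear, not centred). Probe coordinates are on mm9 per the file headers.

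Log2 of the processed signal minus each array's 75th percentile was taken. Control spots and spots with a feature outlier mark were left out (170 on the Pnpla8-/- array and 119 on the WT array). Spots of a probe were averaged, a probe counted as measured when both arrays read it well above background, and each gene took the median of its measured probes. Of 39429 probes, 28324 were named through accession and 2383 through name in the RefSeq table of GRCm38.p6, while 8722 kept the name in the file. All per-sample columns were mapped (0 unused).

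Genes were counted at 2-fold and 1.5-fold, and no p-value was computed, because there is 1 array per genotype. The members and lists were chosen with earlier results of these data known, and 2 genes of the lists are not reported here. All members were named with each probe, as were measured members of the lists (at least the 3 with the largest ratios) and the 3 highest and lowest neighbours on chromosome 17. The alternatives were other scalings (median, none, quantile, loess with a span of 0.3, and the 8 E1A spike-in controls), the deposited value table, normexp background correction (offset 50), and other spot, probe and gene rules. Simulated data with planted folds were used to test the pipeline. The tools were pandas 2.3.3, numpy 2.4.6 and statsmodels 0.14.6 in Python 3.11.15, matplotlib 3.10.9, and limma 3.58.1 in R 4.3.3.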

Additional observations from a re-analysis of the deposited data

How the results depend on the processing

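No member was at least 2-fold lower under any setting tried except without scaling, where the count was 1 (Psmb8), and at a threshold of 1.5-fold the count was 3. The median log2 ratio of the members was -0.49 without scaling and -0.41 with the E1A spike-in controls, settings that shifted the median of all genes by -0.25 and -0.16. Relative to all genes, the members' median stayed between -0.34 and -0.27 in every setting. Leaving out 1 member at a time gave medians between -0.27 and -0.22. Of 120 single-gene values under the 12 settings, 91 moved by less than the spread between probes of a gene and 29 by more. All that moved by more came from other scalings or the normexp background. The deposited value table and the spot and probe rules could hardly move a member, so the count of 91 overstates stability. Of the 10 members 8 have 1 probe, and all member spots were unflagged and well above background. The sign differed from the one reported for B2m in 4 settings and for H2-D1 in 1. The differences of Psmb8, Psmb9 and Psmb10 from their constitutive counterparts kept their sign with the normexp background. They moved by less than the spread between probes of a gene, and were not computed with quantile or loess scaling. No replicate could be left out. No paired analysis was possible because each genotype has 1 array. The signal over background limits Tap1, H2-M3 and the dimmer Nlrc5 probe most. Over all genes, 369 were at least 2-fold lower, against 759 without scaling, 609 with spike-in scaling, 128 with normexp, 1235 without the dim-probe filter and 221 with only bright probes. The share of all genes below 0 was 79.4% without scaling and 69.1% with spike-in scaling, against 43.1%. The cause was not tested.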

Other observations

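Of 13 listed genes for receptors that read class I molecules, their co-receptors and related receptors or chains, 7 were measured on both arrays. Not every one of the 13 encodes a receptor of class I itself. At least 1.5-fold lower in the Pnpla8-/- pool were 5 of the 7, against 5.93% of all measured genes, and their median log2 ratio was -0.82. Below 0 were all 7, against 43.1% of all genes, and 6 with median scaling. Cd3e, a chain of the T cell receptor complex, had -0.058. Klrc1, which encodes the NKG2A chain that sees Qa-1, read a processed signal of 23.6 in the Pnpla8-/- pool and 77.9 in the WT pool on its 1 measured probe, a ratio of -1.48. Its partner Klrd1 (CD94) had -0.73. Cd8b1, the beta chain of the CD8 co-receptor, read 31.2 in the Pnpla8-/- pool and 69.2 in the WT pool, a ratio of -0.90. Pirb and Lilrb4a, inhibitory receptors of myeloid cells, had -0.83 and -0.82, and Klra1, a Ly49 receptor gene, had -0.51 with its 2 probes at -1.02 and 0.011. Klra8, another Ly49 gene, was well above background only in the WT pool and was at least 2.61-fold lower in the Pnpla8-/- pool. Most of these signals are dim. With the normexp background the list's median was -0.33, with 2 genes at least 1.5-fold lower.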
